A study of Homo sapiens with 6 samples.

Results

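The genes described are those of the proteasome, taken by symbol as the rows of 6 FPKM tables that start with PSMA, PSMB, PSMC or PSMD and a digit, leaving out the immune subunits PSMB8 and PSMB9. FPKM is the number of fragments scaled by transcript length and by library size. The rule matched 38 of 19942 symbols. One of these, PSMC3IP, shares the prefix only because its protein was found as a partner of PSMC3. It is a cofactor of meiotic recombination and is given apart, which left 37 proteasome genes. They are 17 genes of the core particle (PSMA and PSMB) and 20 of the regulatory particle (PSMC and PSMD).

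Messenger RNA was sequenced in 6 libraries of HCT116, a human cell line established from a colorectal carcinoma, with 1 library in each group. The groups were 5-fluorouracil resistant cells with EHMT2 siRNA, with control siRNA and untransfected, and parental cells, labelled wild-type, with EHMT2 siRNA, with control siRNA and untransfected. 5-fluorouracil is a pyrimidine analogue used against colorectal cancer, and EHMT2 (G9a) is a histone methyltransferase that places repressive marks on histone H3. The sources used here do not say how the resistant cells were raised, whether they are 1 clone or a mixed population, or which siRNA sequences and times were used.

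The proteasome degrades proteins that carry ubiquitin chains. Its core particle is a barrel in which outer rings of PSMA (α) subunits gate the entrance and inner rings of PSMB (β) subunits hold the cutting sites. The regulatory particle caps the barrel: its PSMC ATPases unfold the substrate, and its PSMD subunits bind and remove the ubiquitin chain. The particle is assembled from its subunits in fixed proportions, and the transcription factor NFE2L1 is known to raise the genes together when proteasome activity falls short.

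EHMT2 message, the target of the siRNA, had 3.80 FPKM with EHMT2 siRNA against 19.5 FPKM with control siRNA and 27.3 FPKM untransfected in resistant cells. In parental cells it had 8.58 FPKM with EHMT2 siRNA against 31.7 FPKM with control siRNA and 19.8 FPKM untransfected. EHMT2 was therefore lowest in the library labelled as its knockdown in each line. The epithelial markers EPCAM, CDH1, KRT8, KRT18, KRT19 and CDX2 were at 1 FPKM or more in every library, while CDX1 and VIL1 were listed at 0, as were the blood genes PTPRC and CD3E, the fibroblast genes COL1A2 and DCN and the endothelial genes PECAM1 and VWF. The other blood and fibroblast genes of these lists were detected, CD68 at 0.37 to 4.99 FPKM and COL1A1 at 3.35 to 9.79 FPKM, and their part in the results was not tested. The untransfected resistant library stood apart at genes of the short arm of chromosome 18, where the deubiquitinase gene USP14 had 60.8 FPKM against 10.4 to 14.4 FPKM in the other 5 libraries. PSMG2 on the same arm had 66.0 FPKM there against 21.1 to 26.2 FPKM elsewhere. For this reason each line pair is given on its own, and the pairs of siRNA libraries hold neither untransfected library. The summed FPKM was 446143 in the untransfected parental library and between 360695 and 392758 in the other 5, and counts past 1.5-fold that move by over 1.5 times with a rescaling to equal sums are given with it. Read numbers were not among the labels or values used here, so the counting error is unknown.

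Proteasome messages were abundant in every library. PSMA8, a testis subunit, and PSMB11, a thymus subunit, were listed at 0 in all 6 libraries, and the other 35 genes were expressed. Of these, 31 encode subunits of the finished particle. All 31 lay above the median expressed gene, which was between 9.13 and 9.80 FPKM, in each of the 6 libraries. PSMB10, the inducible immune subunit that replaces PSMB7, and PSMD5, PSMD9 and PSMD10, which are chaperones of base assembly, make up the remainder.

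**Figure D1:**
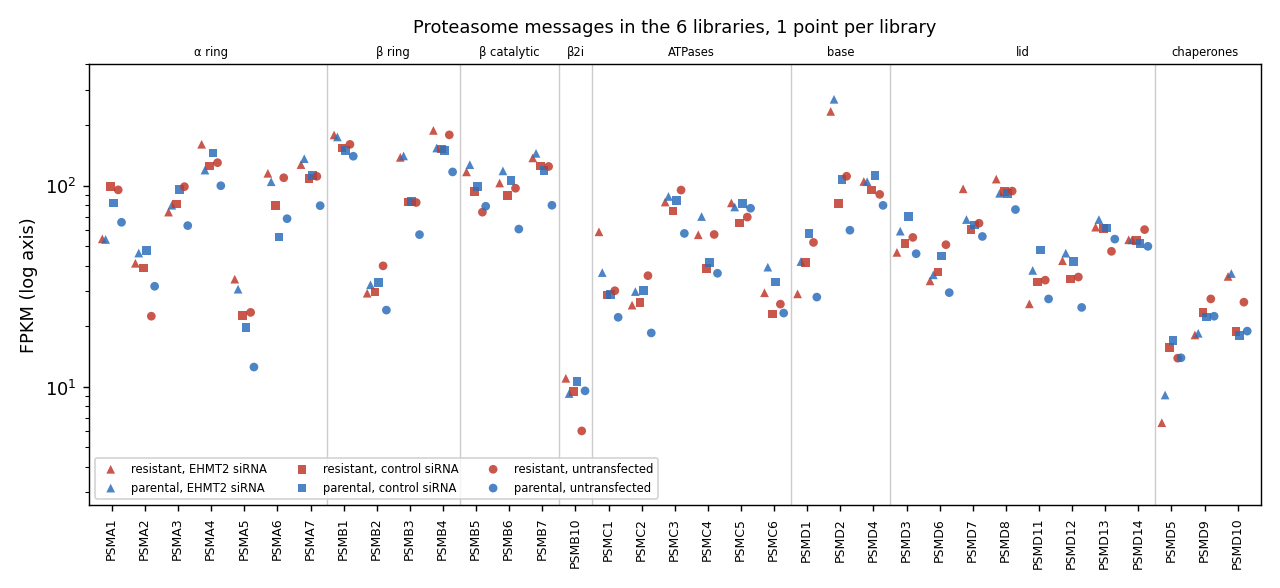
FPKM on a log axis of the 35 expressed proteasome genes, ordered by role, with 1 point for each of the 6 libraries (triangles EHMT2 siRNA, squares control siRNA, circles untransfected; red resistant, blue parental). Blue circles, the untransfected parental library, are the lowest points for 23 of the 35 genes, and PSMD2 spreads from 60.0 to 269 FPKM.

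Subunits that stand in the particle in equal numbers had unequal messages. The highest of the 31 was 6.80 to 11.2 times the lowest within a library. Among structural β subunits, PSMB1 ranged from 140.0 to 179 FPKM and PSMB4 from 117 to 188 FPKM over the 6 libraries. At the low end, the α subunit PSMA5 ranged from 12.5 to 34.3 FPKM and the ATPase PSMC2 from 18.5 to 35.7 FPKM. FPKM is per length of transcript, so these levels can be set side by side, but protein was not measured.

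Core messages were higher than regulatory ones in all 6 libraries. The median of the 14 core subunits was 116 FPKM with EHMT2 siRNA, 91.6 FPKM with control siRNA and 97.9 FPKM untransfected in resistant cells, against 57.0, 51.5 and 55.3 FPKM for the 17 regulatory subunits of those libraries. In parental cells the core median was 119 FPKM with EHMT2 siRNA, 97.3 FPKM with control siRNA and 67.1 FPKM untransfected, against 59.4, 58.0 and 45.9 FPKM for the regulatory subunits. The summed core FPKM over the summed regulatory FPKM was 1.28 in resistant and 1.20 in parental cells with EHMT2 siRNA. With control siRNA this ratio was 1.42 in resistant cells against 1.23 in parental cells, and untransfected it was 1.34 in resistant cells against 1.28 in parental cells. Core messages thus weighed slightly more in the resistant library of each pair. The order held when PSMD2, the most variable gene, was left out of the sums: 1.60 in resistant against 1.54 in parental cells with EHMT2 siRNA, 1.57 in resistant against 1.38 in parental cells with control siRNA, and again above the parental 1.38 untransfected. With 1 library in each group these ratios have no replicate check.

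Over the 6 libraries the proteasome genes had a median ratio of highest to lowest library of 1.73, and 9 of 35 (25.7%) reached 2 or more. Over the 10560 genes at 1 FPKM or more in all 6 libraries the median was 1.91, and 44.9% reached 2 or more. That background was not matched in level to the proteasome genes. PSMD2 varied most, at 4.47, followed by PSMA5 at 2.73, PSMC1 at 2.66 and PSMD5 at 2.57. The lid subunit PSMD14, which is the deubiquitinase of the particle, varied least at 1.21, from 49.9 to 60.4 FPKM. The untransfected parental library was the lowest of the 6 for 23 of the 35 genes (65.7%), against 19% of the 12310 genes expressed in any library. It was the highest for 0 of the 35, against 12.5% of all expressed genes.

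The first comparison was resistance: resistant against parental cells under each treatment. Untransfected, proteasome messages were mostly higher in resistant cells, with 29 of 35 (82.9%) above parental, where 56.3% of all 11731 genes compared were. The median log2 ratio was 0.46, against 0.07 over all genes. With control siRNA and with EHMT2 siRNA proteasome messages were not mostly higher: the medians were -0.12 and -0.09, against -0.02 and -0.05 over all genes. Ratios were taken on log2(FPKM + 1). In bulk RNA, fewer cells of a kind and less RNA per cell cannot be told apart.

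Of the 35 genes, 13 were at least 1.5-fold higher in untransfected resistant cells, where 11.8% of all genes were, and 0 were at least 1.5-fold lower, where 10% of all genes were. The 13 were PSMA3, PSMA5, PSMA6, PSMB2, PSMB4, PSMB6, PSMB7, PSMC2, PSMC3, PSMC4, PSMD1, PSMD2 and PSMD6. All 13 were under 2-fold. By role, the medians were 0.53 over the 7 α subunits, 0.57 over the 4 structural β subunits, 0.52 over the 6 ATPases, 0.88 over the base subunits PSMD1, PSMD2 and PSMD4, and 0.29 over the 8 lid subunits. With all libraries rescaled to the same FPKM sum, 20 genes were 1.5-fold higher and 0 lower, where 22.7% and 6.26% of all genes were. With quantile normalisation, 8 were higher and 1 lower, where 10.2% and 11.1% of all genes were. With control siRNA, 0 of 35 genes were 1.5-fold higher or lower, where 6.49% and 5.52% of all genes were. With EHMT2 siRNA, 1 was higher and 0 were lower, where 5.99% and 9.5% of all genes were.

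**Figure D2:**
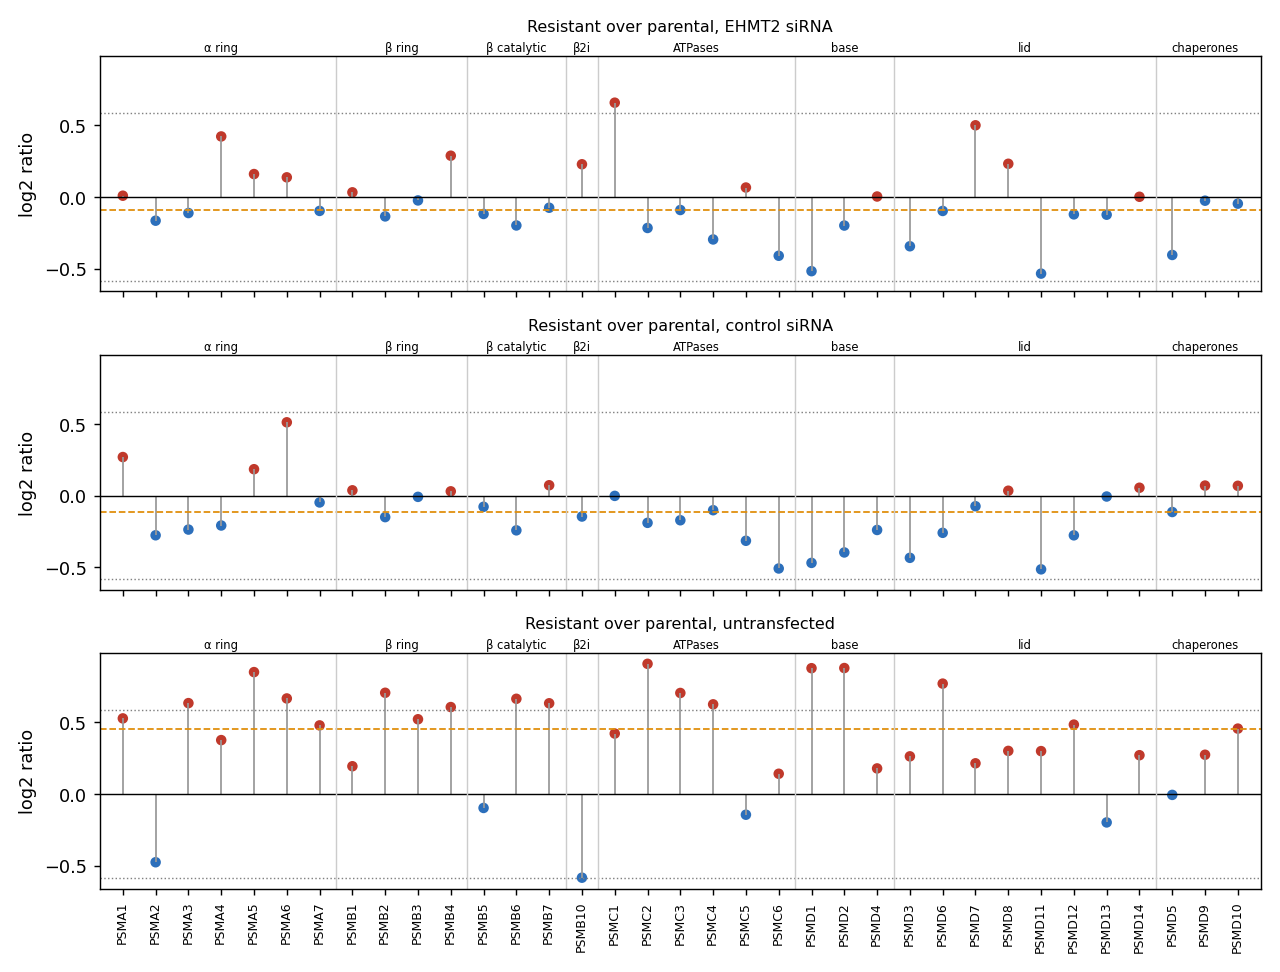
Log2 ratio of resistant over parental FPKM (after adding 1) for the 35 expressed proteasome genes in the EHMT2 siRNA, control siRNA and untransfected pairs, from top to bottom. Dotted lines mark 1.5-fold, the dashed line the median of the 35: -0.09 with EHMT2 siRNA, -0.12 with control siRNA and 0.46 untransfected.

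PSMC2, an ATPase of the base, had the highest ratio of the untransfected pair. Its message was at 35.7 FPKM in resistant and 18.5 FPKM in parental cells untransfected, a log2 ratio of 0.91, at 26.3 and 30.1 FPKM in resistant and parental cells with control siRNA, and at 25.5 and 29.7 FPKM with EHMT2 siRNA. The excess in resistant cells was thus seen without transfection and not in either siRNA pair.

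PSMD1, a large scaffold of the base that docks ubiquitin receptors, was at 52.2 FPKM in resistant and 27.9 FPKM in parental cells untransfected, a log2 ratio of 0.88. It was at 41.6 FPKM in resistant and 58.0 FPKM in parental cells with control siRNA (-0.47), and at 29.0 and 41.9 FPKM in resistant and parental cells with EHMT2 siRNA (-0.52). Its order between the lines was thus opposite in the untransfected pair and in both siRNA pairs, and the cause was not tested. PSMD11, a lid subunit, had the lowest ratio of both siRNA pairs: 33.2 FPKM in resistant and 47.9 FPKM in parental cells with control siRNA (-0.52), and 25.8 and 37.9 FPKM with EHMT2 siRNA (-0.53). Untransfected, it was at 33.9 FPKM in resistant and 27.3 FPKM in parental cells (0.30).

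PSMC6, another ATPase, was at 23.0 FPKM in resistant and 33.2 FPKM in parental cells with control siRNA, and at 29.3 and 39.3 FPKM with EHMT2 siRNA. Untransfected, it differed less, at 25.8 FPKM in resistant and 23.3 FPKM in parental cells. In the 4 siRNA libraries its levels in resistant cells were below the parental level under each treatment.

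The catalytic subunits went different ways in the untransfected pair. PSMB6, which carries the caspase-like site, was at 97.0 FPKM in resistant and 60.8 FPKM in parental cells untransfected, a log2 ratio of 0.67. PSMB7, which carries the trypsin-like site, was at 124 FPKM in resistant and 79.9 FPKM in parental cells (0.63). PSMB5, the chymotrypsin-like subunit and the main target of bortezomib, was at 73.8 FPKM in resistant and 79.0 FPKM in parental cells (-0.10). So 2 of the 3 were higher in resistant cells and PSMB5 was not. With control siRNA PSMB6 was at 89.4 FPKM in resistant and 106 FPKM in parental cells, PSMB7 at 125 and 119 FPKM, and PSMB5 at 93.8 and 99.0 FPKM. All 3 log2 ratios of that pair lay between -0.24 and 0.07.

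PSMB10 had the lowest ratio of the untransfected pair, -0.58, at 6.04 FPKM in resistant and 9.55 FPKM in parental cells. It was at 9.51 and 10.6 FPKM in resistant and parental cells with control siRNA and at 11.0 and 9.26 FPKM with EHMT2 siRNA. PSMB10 shares 34.8% of its exonic bases with the transcript AC040162.1, so its level is uncertain. PSMA2, an α subunit, was at 22.4 FPKM in resistant and 31.6 FPKM in parental cells untransfected (-0.48), at 39.0 and 47.5 FPKM with control siRNA and at 41.1 and 46.2 FPKM with EHMT2 siRNA. It was lower in the resistant library of each pair, and its level is uncertain too, since 34.6% of its exonic bases are shared and 3 pseudogenes bear its name. The lid subunit PSMD13 was at 47.1 FPKM in resistant and 54.2 FPKM in parental cells untransfected, and within 61.3 to 67.8 FPKM in the 4 siRNA libraries.

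In all, 15 of the 35 genes (42.9%) were above 0 in the untransfected pair and below 0 in both siRNA pairs, where 26.3% of the 12310 expressed genes were. They were the core genes PSMA3, PSMA7, PSMB2, PSMB3 and PSMB6 and the regulatory genes PSMC2, PSMC3, PSMC4, PSMC6, PSMD1, PSMD2, PSMD3, PSMD6, PSMD11 and PSMD12. Another 7 genes were higher in resistant cells in all 3 pairs, which share no library: PSMA1, PSMA5, PSMA6, PSMB1, PSMB4, PSMD8 and PSMD14. That is 20% of the 35, where 13.6% of all expressed genes did so. This counts signs alone, and some of the ratios were close to 0. With EHMT2 siRNA the log2 ratio was 0.002 for PSMD14 and 0.009 for PSMA1. PSMB1 had 0.04 with control siRNA and 0.03 with EHMT2 siRNA, and PSMB4 and PSMD8 had 0.03 each with control siRNA. Of the 7, the α subunit PSMA6 had the highest mean of the 3 log2 ratios. PSMA5 was above it untransfected, and PSMA5, PSMB4 and PSMD8 were with EHMT2 siRNA. PSMA6 was at 115 FPKM in resistant and 105 FPKM in parental cells with EHMT2 siRNA, 79.5 and 55.4 FPKM with control siRNA, and 109 and 68.5 FPKM untransfected.

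A limma fit over the 6 libraries, additive in line and treatment, called 0 of the 35 genes between the lines at a Benjamini-Hochberg adjusted p under 0.05 (background 0%). At an unadjusted p under 0.05 it held 1 of 35 genes, where 5.23% of all genes were: PSMA6, with a log2 coefficient of 0.44 (SE 0.170, adjusted p = 0.941). The fit takes the interaction of line and treatment as its error. Its p-values therefore measure only the spread among these libraries and count against any line difference that changed with treatment. The median coefficient was 0.14 over core genes and 0.09 over regulatory genes, with a median SE of 0.18 for each.

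Fitted to the 4 siRNA libraries alone, an alternative with 1 residual degree of freedom, the model called 2 of 35 genes lower in resistant cells, where 4.47% of all genes were, and 0 higher, where 4.49% were. These were PSMD11 (-0.53, SE 0.110, adjusted p = 0.0363) and PSMD1 (-0.49, SE 0.109, adjusted p = 0.0419). Together they make 5.71% of the 35, against 8.96% of all genes called in either direction.

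The second comparison was knockdown: EHMT2 siRNA against control siRNA in each line. The proteasome did not move as a block. Of the 35 genes, 25 (71.4%) were higher with EHMT2 siRNA in resistant cells and 20 (57.1%) in parental cells, where 54.3% and 56.2% of all genes were. The median log2 ratios were 0.20 and 0.06, against 0.06 and 0.09 over all genes. A few members were far from these medians in both lines: PSMD2, PSMD10 and PSMB3 above, PSMD5 and PSMA1 below. In resistant cells 5 genes were at least 1.5-fold higher and 2 lower, where 16.2% and 13.4% of all genes were. In parental cells 6 were higher and 2 lower, where 20.2% and 12.8% of all genes were. With libraries rescaled to equal sums the count of higher genes in resistant cells was 8, where 18.7% of all genes were, and that of lower genes in parental cells was 1, where 9.5% were. At least 1.5-fold higher in both lines were 3 genes (8.57%) and lower 2 (5.71%), against 11.7% and 8.44% of all expressed genes.

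**Figure D3:**
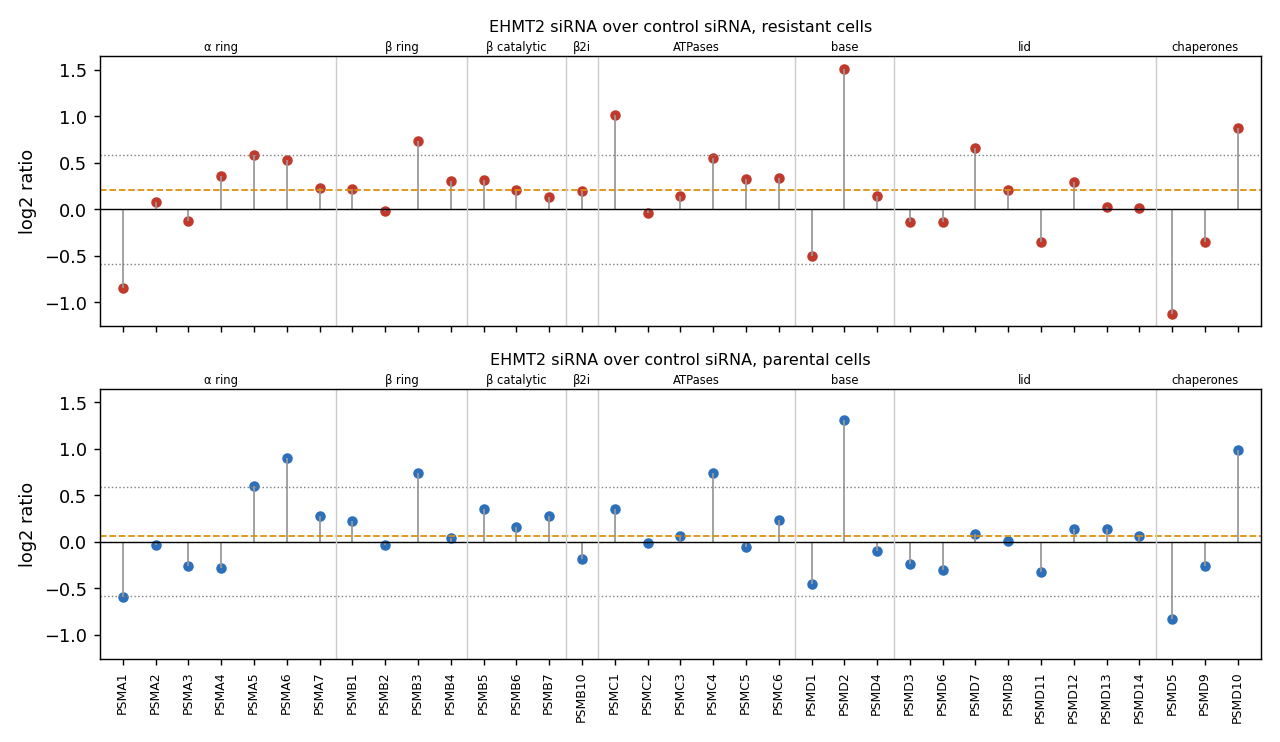
Log2 ratio of EHMT2 siRNA over control siRNA FPKM (after adding 1) for the 35 expressed proteasome genes in resistant (top) and parental (bottom) cells. Dotted lines mark 1.5-fold and the dashed line the median, 0.20 and 0.06; PSMD2 stands highest and PSMD5 lowest in both panels.

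PSMD2, a base subunit that binds ubiquitin-like domains of shuttle proteins and the deubiquitinase USP14, had 234 FPKM with EHMT2 siRNA against 81.3 FPKM with control siRNA and 111 FPKM untransfected in resistant cells. In parental cells it had 269 FPKM with EHMT2 siRNA against 107 FPKM with control siRNA and 60.0 FPKM untransfected. Both knockdown libraries stood above all 4 others, by 2.87-fold in resistant and 2.50-fold in parental cells over control siRNA. With EHMT2 siRNA it was the most abundant message of the 31 subunits in each line.

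PSMD10 (gankyrin), a chaperone of base assembly, had 35.4 FPKM with EHMT2 siRNA against 18.9 FPKM with control siRNA and 26.3 FPKM untransfected in resistant cells. In parental cells it had 36.6 FPKM with EHMT2 siRNA against 17.9 FPKM with control siRNA and 18.9 FPKM untransfected. Again the 2 knockdown libraries were the highest. Another chaperone of the same step, PSMD5, went the other way: 6.63 FPKM with EHMT2 siRNA against 15.6 FPKM with control siRNA and 13.9 FPKM untransfected in resistant cells, and 9.10 FPKM with EHMT2 siRNA against 17.0 FPKM with control siRNA and 13.9 FPKM untransfected in parental cells. The knockdown libraries were the lowest of the 6. The remaining base chaperone, PSMD9, had 18.1 FPKM with EHMT2 siRNA against 23.4 FPKM with control siRNA and 27.3 FPKM untransfected in resistant cells, and 18.4 FPKM against 22.3 FPKM and 22.4 FPKM in those groups of parental cells. The chaperones of one step thus showed both directions, although 3 pseudogenes bear the name of PSMD10, which makes its level less certain.

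Among core genes, PSMB3, a structural β subunit, had 138 FPKM with EHMT2 siRNA against 82.9 FPKM with control siRNA and 82.4 FPKM untransfected in resistant cells. In parental cells it had 140.5 FPKM with EHMT2 siRNA against 83.5 FPKM with control siRNA and 57.1 FPKM untransfected. The α subunit PSMA1 had 54.3 FPKM with EHMT2 siRNA against 99.0 FPKM with control siRNA and 95.2 FPKM untransfected in resistant cells, and 54.0 FPKM with EHMT2 siRNA against 82.0 FPKM with control siRNA and 65.7 FPKM untransfected in parental cells. PSMB3 was highest and PSMA1 lowest in the knockdown libraries of each line. PSMA1 shares 24.7% of its exonic bases with AC018523.2, which had 2.98 FPKM with EHMT2 siRNA against 1.39 FPKM with control siRNA in resistant cells and 5.85 FPKM against 1.01 FPKM in parental cells. Its part in the PSMA1 level was not tested.

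PSMA5 and PSMA6, further α subunits, leaned upward. PSMA5 had 34.3 FPKM with EHMT2 siRNA against 22.6 FPKM with control siRNA and 23.4 FPKM untransfected in resistant cells, and 30.6 FPKM with EHMT2 siRNA against 19.7 FPKM with control siRNA and 12.5 FPKM untransfected in parental cells. PSMA6 was higher with EHMT2 siRNA than with control siRNA by a log2 ratio of 0.53 in resistant cells against 0.90 in parental cells. In resistant cells its 115 FPKM with EHMT2 siRNA was close to the 109 FPKM untransfected, while in parental cells it had 105 FPKM against 68.5 FPKM. For PSMA6 4 pseudogenes bear its name, and 14.1% of its exonic bases are shared with AL121594.1. That transcript had 6.27 FPKM against 0.81 FPKM with control siRNA in resistant cells and 3.04 FPKM against 2.07 FPKM in parental cells. PSMA4 differed in direction, with 160.5 FPKM with EHMT2 siRNA against 125 FPKM with control siRNA and 130.0 FPKM untransfected in resistant cells, and 119 FPKM against 145 FPKM and 99.9 FPKM in those groups of parental cells.

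The catalytic subunits were modestly higher in both lines. PSMB5 had 117 FPKM with EHMT2 siRNA against 93.8 FPKM with control siRNA in resistant cells and 127 FPKM against 99.0 FPKM in parental cells. PSMB6 had 103 FPKM against 89.4 FPKM in resistant and 118 FPKM against 106 FPKM in parental cells. PSMB7 had 137 FPKM against 125 FPKM in resistant and 145 FPKM against 119 FPKM in parental cells. Their 6 log2 ratios lay between 0.13 and 0.36, all above 0 and all below 1.5-fold.

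In the regulatory particle, the ATPase PSMC4 had 57.0 FPKM with EHMT2 siRNA against 38.6 FPKM with control siRNA and 57.2 FPKM untransfected in resistant cells, and 70.2 FPKM with EHMT2 siRNA against 41.5 FPKM with control siRNA and 36.7 FPKM untransfected in parental cells. In resistant cells the untransfected level of PSMC4 was close to that of the knockdown. The ATPase PSMC1 had 58.9 FPKM with EHMT2 siRNA against 28.6 FPKM with control siRNA and 30.0 FPKM untransfected in resistant cells, and 37.0 FPKM against 28.7 FPKM and 22.2 FPKM in those groups of parental cells. The level of PSMC1 is uncertain, since 75.8% of its exonic bases overlap NRDE2 on the other strand and 13 pseudogenes bear its name. NRDE2 was listed at 2.93 FPKM with EHMT2 siRNA against 1.99 FPKM with control siRNA in resistant cells. In parental cells NRDE2 was at 3.51 FPKM against 2.11 FPKM, and its part in the PSMC1 level was not tested. PSMD7, a lid subunit that pairs with PSMD14, had 96.4 FPKM with EHMT2 siRNA against 60.5 FPKM with control siRNA and 65.0 FPKM untransfected in resistant cells, and 67.8 FPKM against 63.8 FPKM and 55.9 FPKM in those groups of parental cells. It shares 30.7% of its exonic bases with a transcript of the other strand. PSMC1 and PSMD7 were thus the members whose knockdown ratio was past 1.5-fold in resistant cells alone, and the difference between the lines was not tested.

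PSMD1 and PSMD11 were lower with EHMT2 siRNA than with control siRNA in both lines. The log2 ratio of PSMD1 was -0.51 in resistant cells against -0.46 in parental cells, and that of PSMD11 was -0.35 in resistant cells against -0.33 in parental cells. Against untransfected cells the lines differed. In parental cells PSMD1 had 41.9 FPKM with EHMT2 siRNA and 27.9 FPKM untransfected, and PSMD11 had 37.9 and 27.3 FPKM. In resistant cells PSMD1 had 29.0 FPKM with EHMT2 siRNA and 52.2 FPKM untransfected, and PSMD11 had 25.8 and 33.9 FPKM. The other 18 expressed genes were PSMA2, PSMA3, PSMA7, PSMB1, PSMB2, PSMB4, PSMB10, PSMC2, PSMC3, PSMC5, PSMC6, PSMD3, PSMD4, PSMD6, PSMD8, PSMD12, PSMD13 and PSMD14. Each of these was within 1.5-fold of control siRNA in both lines. For PSMC6 the log2 ratio was 0.34 in the resistant line against 0.24 in the parental one, and for PSMB10 it was 0.19 against -0.18.

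The 6-library limma fit called 0 of 35 genes for EHMT2 siRNA (background 0%), and 8 had an unadjusted p under 0.05, which is 22.9% against 26.6% of all 11521 genes. The lowest adjusted p was 0.0663 for PSMD5, with a log2 coefficient of -0.98 (SE 0.191). PSMD10 had 0.93 (SE 0.198, adjusted p = 0.0742) and PSMD2 1.41 (SE 0.346, adjusted p = 0.0889). This fit was tried on simulated data with 200 of 11521 genes changed. It found 1.5% of genes changed by 1 on the log2 scale and 100% of genes changed by 2. The simulated data held no other effects and the share of genes changed in the real data is not known, so neither percentage need hold there. EHMT2 itself, the siRNA target, had a log2 coefficient of -1.93 (SE 0.363) and was not called. With the siRNA target itself not called, the 0 calls of this fit say little about PSMD5 and PSMD10.

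In the 4 siRNA libraries alone, 12 of 35 genes were called, 8 higher and 4 lower with EHMT2 siRNA, where 23.8% of all genes were called higher and 18.7% lower. The share of 34.3% was below that of all genes, 42.5%. Called higher in this fit were PSMD2 (1.41, SE 0.120, adjusted p = 0.00085), PSMD10 (0.93, SE 0.114, adjusted p = 0.00193), PSMB3 (0.74, SE 0.110, adjusted p = 0.00348), PSMC4, PSMA6, PSMA5, PSMC1 and PSMB5. Called lower were PSMD5 (-0.98, SE 0.136, adjusted p = 0.00275), PSMA1 (-0.72, SE 0.119, adjusted p = 0.00476), PSMD1 and PSMD11. The core held 5 of the 12 (33.3% of 15) and the regulatory particle 7 (35% of 20). These calls rest on 2 libraries a treatment and were not made over all 6 libraries. The error here is again the interaction of line and treatment. The p-values of this fit therefore measure how alike the lines were, not the spread between repeated transfections.

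The promoters of the 5 genes past 1.5-fold in both lines are shown, PSMD2, PSMD10 and PSMB3 higher and PSMD5 and PSMA1 lower with EHMT2 siRNA. NFE2L1, whose message was also called lower in that 4-library fit, binds the antioxidant response element. The message of its relative NFE2L2 was called higher in the same fit (0.98). A link of either factor to the motif was not tested. The windows run from 250 bases before to 50 bases after the start site in RefSeq (GRCh38.p14), 5′ to 3′ on the gene's strand, at chr3:184298991-184299290 (+) for PSMD2, chrX:108091493-108091792 (-) for PSMD10, chr17:38752491-38752790 (+) for PSMB3, chr9:120842873-120843172 (-) for PSMD5 and chr11:14520337-14520636 (-) for PSMA1. Capitals mark the motif TGACNNNGC on either strand.
PSMD2: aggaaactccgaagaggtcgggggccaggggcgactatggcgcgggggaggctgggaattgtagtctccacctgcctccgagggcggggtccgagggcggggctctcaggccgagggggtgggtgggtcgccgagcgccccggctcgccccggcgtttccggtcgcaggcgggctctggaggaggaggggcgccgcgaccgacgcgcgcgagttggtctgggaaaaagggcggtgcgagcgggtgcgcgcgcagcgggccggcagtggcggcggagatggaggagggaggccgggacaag
PSMD10: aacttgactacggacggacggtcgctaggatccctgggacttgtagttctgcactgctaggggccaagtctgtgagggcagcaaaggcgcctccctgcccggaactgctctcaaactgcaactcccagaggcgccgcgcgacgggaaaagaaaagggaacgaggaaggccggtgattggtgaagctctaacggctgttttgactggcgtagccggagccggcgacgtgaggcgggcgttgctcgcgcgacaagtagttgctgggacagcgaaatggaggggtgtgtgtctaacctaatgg
PSMB3: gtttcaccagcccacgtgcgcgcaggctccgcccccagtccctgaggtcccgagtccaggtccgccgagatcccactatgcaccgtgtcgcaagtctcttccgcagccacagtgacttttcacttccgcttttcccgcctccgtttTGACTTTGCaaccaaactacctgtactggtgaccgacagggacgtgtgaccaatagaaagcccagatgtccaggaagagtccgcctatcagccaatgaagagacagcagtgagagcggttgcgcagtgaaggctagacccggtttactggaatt
PSMD5: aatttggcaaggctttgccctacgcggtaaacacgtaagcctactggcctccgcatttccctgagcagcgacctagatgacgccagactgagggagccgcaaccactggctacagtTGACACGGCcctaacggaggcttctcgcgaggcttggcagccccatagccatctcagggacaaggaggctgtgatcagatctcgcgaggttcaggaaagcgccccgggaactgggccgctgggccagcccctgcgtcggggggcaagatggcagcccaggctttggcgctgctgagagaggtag
PSMA1: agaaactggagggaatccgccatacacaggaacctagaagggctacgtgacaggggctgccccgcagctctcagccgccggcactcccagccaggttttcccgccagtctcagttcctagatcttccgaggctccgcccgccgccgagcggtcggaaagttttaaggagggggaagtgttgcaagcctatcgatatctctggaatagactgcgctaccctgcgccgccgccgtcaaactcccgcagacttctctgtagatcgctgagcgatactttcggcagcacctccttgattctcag
The motif was found in PSMB3, which was higher with EHMT2 siRNA, and in PSMD5, which was lower. The PSMD2, PSMD10 and PSMA1 windows do not hold these letters. Over the 32 proteasome promoters matched by symbol, 7 (21.9%) held the motif, against 13.6% of 27305 promoters of the same length. These were PSMB3, PSMC4, PSMD1, PSMD3, PSMD5, PSMD9 and PSMD12. The ETS core CCGGAAG on either strand was in 11 of 32 (34.4%) against 10.7% of all promoters. PSMA7, PSMB1, PSMB6, PSMB7 and PSMD4 were not matched. A match is a description of letters, not a bound site.

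The third comparison was transfection: control siRNA against untransfected cells. It shares the control siRNA libraries with the knockdown comparison and all 4 of its libraries with the line pairs, so its values restate them from another side. In resistant cells proteasome messages were near their untransfected level, with a median log2 ratio of -0.09, against -0.05 over all genes. There 9 of 35 (25.7%) were above, where 45.8% of all genes were. In parental cells 32 of 35 (91.4%) were above, where 53.9% of all genes were, with a median of 0.49 against 0.04 over all genes. At least 1.5-fold higher were 1 gene in resistant cells, where 11.1% of all genes were, and 10 in parental cells, where 6.95% were. At least 1.5-fold lower were 0 in each line, where 13.2% of all genes were in resistant and 8.21% in parental cells. In resistant cells the count of lower genes was 1 after rescaling to equal sums, where 14.6% of all genes were. With rescaling to equal sums the parental count of higher genes was 19, where 14.1% of all genes were, with quantile normalisation 7, where 6.63% were, and with ratios centred on the median of all genes 6, where 5.79% were.

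By role, the parental medians were 0.83 over the base subunits PSMD1, PSMD2 and PSMD4, 0.57 over the 3 catalytic β subunits, 0.53 over the 7 α subunits, 0.43 over the ATPases and 0.43 over the lid, 0.39 over the 4 structural β subunits and -0.01 over the 3 base chaperones. PSMD1 was at 58.0 FPKM with control siRNA against 27.9 FPKM untransfected in parental cells (1.03), and PSMD2 at 107 FPKM against 60.0 FPKM (0.83). PSMB6, the highest core gene, was at 106 FPKM with control siRNA against 60.8 FPKM untransfected (0.79). The other 7 past 1.5-fold were PSMA3, PSMA5, PSMC2, PSMD3, PSMD6, PSMD11 and PSMD12. The 3 parental genes below 0 were PSMA6 (-0.30), PSMD10 (-0.07) and PSMD9 (-0.01). In resistant cells PSMA2 had the highest ratio (0.77), followed by PSMB10 (0.58) and PSMD13 (0.37), and PSMC4 had the lowest (-0.55), followed by PSMD10 and PSMA6 (-0.46 each).

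Over both lines the limma fit called 0 of 35 genes for control siRNA, where 0.0347% of all genes were called higher and 0.00868% lower, 0.0434% in all. PSMA2 alone had an unadjusted p under 0.05 (0.67, SE 0.176, adjusted p = 0.7), 2.86% of the 35, where 7.06% of all genes did. The median coefficient was 0.24 over core and 0.14 over regulatory genes.

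Genes that make, open, feed or control the proteasome were read from 7 lists, 40 genes in all, of which 39 passed the filter of the fit (all but PSMB8). Their median log2 ratio between the lines was 0.12 with EHMT2 siRNA, 0.04 with control siRNA and 0.12 untransfected, against 0.46 over the subunits untransfected. The lists differed in that pair. The untransfected median was 0.65 over the 3 expressed subunits outside the symbol rule. There ADRM1, a ubiquitin receptor, had 0.67, SEM1 0.65 and the immune subunit PSMB9 -0.19. Over the 5 activators and inhibitor the median was 0.56, with 4 above 0 (80%, against 56.3% of all genes). It was between -0.10 and 0.16 over the other 5 lists. For EHMT2 siRNA the medians were -0.07 in resistant and -0.02 in parental cells. The 6-library limma fit called 0 of the 39 in each of the 3 effects, and an unadjusted p under 0.05 was held by 12 for EHMT2 siRNA (30.8%, against 26.6% of all genes), 2 for line (5.13%, against 5.23%) and 2 for control siRNA (5.13%, against 7.06%). In the 4 siRNA libraries 10 were called higher and 7 lower with EHMT2 siRNA (43.6%, against 42.5% of all genes).

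NFE2L1, the factor that drives proteasome genes, had 30.2 FPKM with EHMT2 siRNA against 81.7 FPKM with control siRNA and 47.8 FPKM untransfected in resistant cells. In parental cells it had 28.5 FPKM with EHMT2 siRNA against 74.0 FPKM with control siRNA and 83.4 FPKM untransfected. The knockdown libraries were the lowest of the 6 in both lines, with a limma coefficient of -1.38 (SE 0.277, adjusted p = 0.0685 over 6 libraries and 0.000791 over the 4 siRNA libraries). In the untransfected pair, where proteasome messages were mostly higher in resistant cells, NFE2L1 message was lower there (-0.79). A link between them was not tested, and neither protein level nor activity of NFE2L1 was measured. Its relative NFE2L2, which drives oxidative stress genes, had 86.7 FPKM with EHMT2 siRNA against 44.8 FPKM with control siRNA in resistant cells and 66.8 FPKM against 32.3 FPKM in parental cells. Of the 6 genes of that list the 4-library fit called 1 higher and 2 lower with EHMT2 siRNA (50%, against 42.5% of all genes).

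Among the 5 chaperones of core assembly, POMP, which completes the β ring, had 60.0 FPKM with EHMT2 siRNA against 32.4 FPKM with control siRNA and 34.4 FPKM untransfected in resistant cells, and 69.2 FPKM with EHMT2 siRNA against 31.6 FPKM with control siRNA and 30.7 FPKM untransfected in parental cells. It rose in the 4-library fit (0.99, SE 0.118, adjusted p = 0.00179), and its adjusted p over 6 libraries was 0.0608. PSMG4 had the lowest mean knockdown ratio of these 5, -0.49. That list had 1 call in each direction (40%, against 42.5% of all genes).

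**Figure D4:**
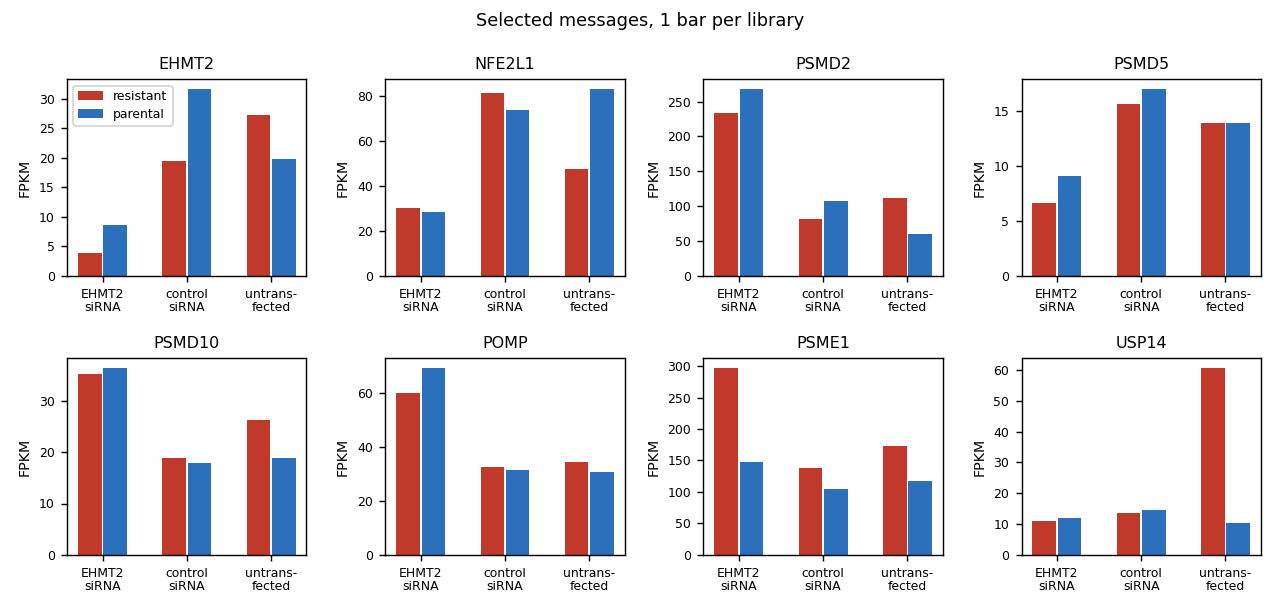
FPKM of 8 genes, with 1 bar per library from 0, grouped by treatment (EHMT2 siRNA, control siRNA, untransfected) and with resistant cells in red left of parental cells in blue. EHMT2, NFE2L1 and PSMD5 are lowest and PSMD2, PSMD10 and POMP highest in the EHMT2 siRNA bars of each line, and USP14 reaches 60.8 FPKM in untransfected resistant cells alone.

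The list of 4 activators that open the core gate and the inhibitor PSMF1 had the highest median of the 7 lists for EHMT2 siRNA, 0.83 in resistant and 0.50 in parental cells. PSMF1 itself had 0.58 in resistant and -0.24 in parental cells. PSME1, a subunit of the interferon-inducible activator, had 297 FPKM with EHMT2 siRNA against 138 FPKM with control siRNA and 172 FPKM untransfected in resistant cells, and 148 FPKM against 104 FPKM and 117 FPKM in those groups of parental cells. PSME4, the activator of nuclear proteasomes, had 22.0 FPKM with EHMT2 siRNA against 12.0 FPKM with control siRNA in resistant cells and 29.8 FPKM against 16.4 FPKM in parental cells. PSME3 went the other way, with 36.8 FPKM against 48.0 FPKM in resistant and 42.8 FPKM against 78.3 FPKM in parental cells. The 4-library fit called 3 of the 5 higher and 1 lower with EHMT2 siRNA (80%, against 42.5% of all genes). PSME1 was also the gene of the 39 that this fit called higher in resistant cells (0.70, SE 0.162, adjusted p = 0.0464). That is 2.56% of the 39, where 4.49% of all genes were called higher.

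Of the 3 expressed subunits outside the symbol rule, SEM1, a small lid subunit, had 29.8 FPKM with EHMT2 siRNA against 41.0 FPKM with control siRNA in resistant cells and 23.1 FPKM against 39.9 FPKM in parental cells, and was the 1 of the 3 called, lower. That is 33.3% of the 3, where the 4-library fit called 42.5% of all genes for EHMT2 siRNA. Of 8 associated factors, 3 were called higher and 1 lower (50%). The gene called lower was the deubiquitinase UCHL5 (mean log2 ratio -0.68), while the thioredoxin-like TXNL1 had the highest mean (0.73). Of 6 ubiquitin shuttles, 2 were called higher and 1 lower (50%), with means of 0.79 for the autophagy receptor SQSTM1 and -0.58 for RAD23B. Of 6 genes for ubiquitin and its activating enzymes, 0 were called for EHMT2 siRNA in the 4-library fit. For that effect 0 of the 6 had an unadjusted p under 0.05 in either fit, where 52.3% of all genes did over 4 libraries and 26.6% over 6.

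USP14, which trims ubiquitin chains at the regulatory particle, had 10.8 FPKM with EHMT2 siRNA against 13.5 FPKM with control siRNA and 60.8 FPKM untransfected in resistant cells, and 11.8 FPKM against 14.4 FPKM and 10.4 FPKM in those groups of parental cells. Outside the untransfected resistant library its line ratios were -0.12 with EHMT2 siRNA and -0.09 with control siRNA. PSMC3IP, the recombination cofactor, had 7.28 FPKM with EHMT2 siRNA against 12.5 FPKM with control siRNA and 12.5 FPKM untransfected in resistant cells, and 13.1 FPKM against 14.2 FPKM and 9.23 FPKM in those groups of parental cells.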

How the data were processed

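Total RNA was turned into libraries with a TruSeq RNA kit, per the labels' protocols. Build GRCh38 is named in the submitters' processing notes, with the tools StringTie 2.1.1, HISAT2 2.2.1, cutadapt 4.9 and FastQC 0.12.1. Annotation release and strand setting: not given in the sources used here. What the authors deposited are FPKM values, 1 table of 19957 rows per library, with no read counts, so depth and counting error are unknown.

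Libraries were grouped by title. Another label names the untransfected resistant cells in a shorter form than the transfected ones, and the series text gives both forms for resistant cells. The series text speaks of replicates, and 1 library of each group was analysed here.

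Repeated symbols were reduced to the row of highest mean, which left 19942. Pairs of libraries were compared by log2(FPKM + 1), over genes that reached 1 FPKM in either library of the pair, and counted past 1.5-fold on that scale. An additive model in line and treatment was fitted with limma 3.58.1 in R 4.3.3 (trend, Benjamini-Hochberg over all 11521 genes at 1 FPKM in at least 3 libraries, threshold 0.05), with 2 residual degrees of freedom over 6 libraries, and was tested on simulated data. Shared exonic bases and pseudogene names came from GENCODE 29 (GRCh38), and promoters from RefSeq.

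Values in all 6 libraries were to be given for PSMB5, PSMB6, PSMB7, PSMB10, the 3 highest and 3 lowest genes of each pair, and each gene called. Of the 7 other lists, the highest and lowest by mean line or knockdown ratio could be named, with NFE2L1, USP14 and EHMT2 always. The members and lists were chosen with earlier results of these data known. Alternatives were the pseudocount, the FPKM filter, the scaling, the fold threshold, the members counted, the trend, each library left out and the 4 siRNA libraries alone. The alternatives with PSMC3IP and without members whose exonic bases are shared by 25% or more were chosen after seeing the data.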

Additional observations from a re-analysis of the deposited data

Results flagged for a closer look

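The median log2 ratio of the 35 proteasome genes had opposite signs between treatments: resistant over parental it was 0.46 untransfected, -0.12 with control siRNA and -0.09 with EHMT2 siRNA. Seen from the transfection side, control siRNA over untransfected, it was -0.09 in resistant and 0.49 in parental cells. The untransfected and control siRNA line pairs use the same 4 libraries as the transfection reading, while the EHMT2 siRNA pair uses other libraries. The lowest level of 23 of the 35 genes lay in 1 of those 4, the untransfected parental library. With 1 library in each group the difference between these medians was not tested.

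Single genes with opposite signs of at least 0.3 in size stood out in the same way, again untested. For PSMD1, resistant over parental gave 0.88 untransfected, -0.47 with control siRNA and -0.52 with EHMT2 siRNA, and control siRNA over untransfected gave -0.32 in resistant and 1.03 in parental cells. PSMD2 gave 0.88 untransfected and -0.40 with control siRNA between the lines, and -0.45 in resistant and 0.83 in parental cells for control siRNA. PSMD11 gave 0.30 untransfected, -0.52 with control siRNA and -0.53 with EHMT2 siRNA between the lines. For control siRNA over untransfected, PSMB2 gave -0.42 in resistant and 0.44 in parental cells, PSMC2 gave -0.43 and 0.67, PSMC3 gave -0.34 and 0.54, and PSMD6 gave -0.44 and 0.59. PSMC3IP, which is no proteasome subunit, gave 0.40 untransfected and -0.76 with EHMT2 siRNA between the lines.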

How the results depend on the processing

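No paired analysis was possible because each group holds only replicate number 1, so the groups share fewer than 2 numbers. Of the 7 pair medians, 6 kept their direction under every setting run, and that for EHMT2 siRNA in parental cells (0.06) was -0.03 with ratios centred on all genes. With all libraries rescaled to the same FPKM sum, which moved the median of all genes by more than 0.1 in several pairs (to 0.28 in the untransfected line pair and 0.19 for control siRNA in parental cells), the member median was 0.69 for the untransfected line pair, 0.18 for EHMT2 siRNA in parental cells and 0.67 for control siRNA in parental cells. Relative to all genes the untransfected line median was 0.39 as deposited and 0.41 rescaled. With quantile normalisation the line median with EHMT2 siRNA was -0.19. Members called by limma numbered 2 for line and 12 for EHMT2 siRNA with only the 4 siRNA libraries, against 0 and 0 over 6 libraries. Leaving out each library in turn gave 0 to 2 for line, 0 to 12 for EHMT2 siRNA and 0 to 4 for control siRNA, each non-zero count coming without either the resistant or the parental untransfected library. In the control siRNA effect, the 4 genes called without the resistant untransfected library were PSMB6, PSMD1, PSMD2 and PSMD11, higher (11.4%, against 3.58% of all genes), and the 2 called without the parental one were PSMA2, higher, and PSMC4, lower (5.71%, against 17.9%). For line and EHMT2 siRNA the shares of all genes in these fits were 8.84% to 8.97% and 42.6%. There the lone untransfected library is assumed to vary like the other groups, and the cause of these shifts was not tested. All other alternatives of the 3 fits called 0 members. For the untransfected line pair, leaving out PSMC1, PSMA2, PSMB10 and PSMD7, which share 25% or more of their exonic bases, gave 0.49 and counting PSMC3IP gave 0.44, the widest shifts of these 2 settings. Depth is unknown, and 1 library per group limits every pair.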
